A study of Homo sapiens with 6 samples.

Results

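The AKT kinases and the class I PI3 kinases that switch them on were examined as RNA in HEK293 cells, an established human embryonic kidney line, with and without the mitochondrial ubiquitin ligase MUL1. The 8 members were AKT1, AKT2, the catalytic subunit genes PIK3CA, PIK3CB and PIK3CD, regulatory subunit genes PIK3R1 and PIK3R2, and the AKT substrate GSK3B. They were chosen by name from 57142 measured genes, with earlier results of these data known. MUL1 was added because it is the gene named in the genotype. The 6 libraries were 3 of wild-type cells (WT) and 3 of cells labelled MUL1(−/−), all grown in serum-containing DMEM without further treatment. The MUL1(−/−) cells had been made earlier with CRISPR-Cas9. The sources used here do not say which clone gave the RNA or whether the 3 libraries of a genotype came from separate cultures, so p-values measure the spread between these samples, which may be technical. A difference between genotypes and a difference between clones of the line cannot be told apart. In bulk RNA, fewer expressing cells and less RNA per cell cannot be told apart either.

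The pathway begins at receptors for insulin and growth factors. These recruit class I PI3 kinase, a pair made of a catalytic p110 subunit and a regulatory p85-type subunit, which makes the membrane lipid PIP3. AKT binds PIP3 and is then phosphorylated by PDPK1 and by the MTOR complex that contains RICTOR. Active AKT phosphorylates GSK3, TSC2 and the FOXO transcription factors, among others, and lipid phosphatases oppose the pathway. MUL1 is known to attach ubiquitin to AKT, and the comparison asked whether the RNA of the AKT isoforms and of the PI3 kinase subunits differed between the genotypes.

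AKT1 and AKT2 encode closely related kinases, so it matters whether a read can be given to 1 of them. The coding sequences of the principal transcripts in GENCODE 29 were 1440 bases long for AKT1 and 1443 for AKT2, and the longest run of identical bases between them was 32. The 30 coding bases inside this run are shown, from the sense strand, because they are where the transcripts are hardest to separate. No base is in capitals, since capitals would mark a difference from AKT2 and there were 0.
AKT1: agctgttcttccacctgtcccgggagcgtg
AKT2: agctgttcttccacctgtcccgggagcgtg
In both genes the first 2 of these bases end 1 exon and the other 28 begin the next. The 28 bases lie, on the minus strand of GRCh38, at chr14:104773553-104773580 in AKT1 and at chr19:40238064-40238091 in AKT2. Of the 11572 distinct stretches of 31 bases in the AKT1 transcripts, 4 also occurred in AKT2 transcripts, so the counts of these isoforms could be confused over little of their length.

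Sequence shared with other genes was most extensive in PIK3R2 and PIK3CA. In PIK3R2, 86.5% of the stretches of 31 bases also occurred in another gene, nearly all in a readthrough transcript that runs from PIK3R2 into IFI30, and in PIK3CA 38.8% did, mostly in KCNMB3, which overlaps its 3′ end. The share was 5.74% in AKT1, 4.99% in AKT2 and 4.68% in PIK3CD, and below 2% in PIK3CB (0.796%), PIK3R1 (0.846%), GSK3B (1.46%) and MUL1 (0%). The PIK3R2 and PIK3CA counts are therefore uncertain where they overlap those neighbours.

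Counts were deposited per exon bin, a piece of exon between annotated boundaries, and bins were added up to give the count of a gene. A read that covers several bins is counted in each, so sums exceed the number of reads. The sums over genes were 139226480, 147895254 and 131543081 in WT replicates 1 to 3 and 126985543, 126721848 and 126353408 in MUL1(−/−) replicates 1 to 3. Values are given as CPM, counts scaled to a common library size after TMM normalisation, in which 1 count equalled 0.00683 to 0.00779 CPM. The test was edgeR's quasi-likelihood test with Benjamini-Hochberg adjustment over the 25204 genes with enough counts, and a gene was called at an adjusted p under 0.05. By this rule 9488 genes, 37.6% of those tested, were called, 18.9% higher and 18.8% lower in MUL1(−/−) cells, so a call was common in this comparison.

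The libraries carried the markers of the line. Each of the 8 HEK293 markers (PAX2, LHX1, NEFL, NEFM, INA, VIM, KRT8 and KRT18) was above 1 CPM in every library, and VIM, an intermediate filament gene, was the most abundant at 573 to 905 CPM. Of 4 genes of differentiated kidney, LRP2 alone was above 1 CPM in every library, UMOD had at most 1 count, and SLC12A1 had 8 to 15. Of 5 genes of blood, endothelium, fibroblasts and liver, COL1A1 alone was above 1 CPM, at 14.4 to 23.9. PTPRC and PECAM1 stayed at or below 0.401 CPM, CD3E had at most 1 count, and ALB reached 0.254 CPM. The summed HEK293 markers were 1473, 1334 and 1267 CPM in WT libraries and 1052, 1077 and 903 CPM in MUL1(−/−) libraries. PAX2, a transcription factor of kidney development, was at 10.3, 9.50 and 7.56 CPM in WT and 2.79, 3.23 and 1.86 CPM in MUL1(−/−), a log2 fold change of -1.80 (edgeR adjusted p = 1.64e-06). KRT8 (-0.93), LHX1 (-0.55) and VIM (-0.34) were also called lower, NEFM was called higher (1.06, edgeR adjusted p = 2.24e-05), and NEFL (-0.31), INA (-0.02) and KRT18 (0.01) were not called. PTPRC, a gene of white blood cells, and PECAM1, of endothelium, were called higher at these low levels, from 8 to 21 and 1 to 13 counts in WT to 37 to 52 and 22 to 35 counts in MUL1(−/−) libraries (log2 fold changes 1.94 and 2.06, edgeR adjusted p = 0.000865 and 0.00379). AQP1, a kidney water channel, was called higher (0.86) and COL1A1 lower (-0.39). The part of these differences between the lines in the results below was not tested.

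MUL1 RNA itself did not separate the genotypes. It was at 14.9, 14.7 and 18.4 CPM in WT replicates 1 to 3 and 18.0, 16.1 and 18.5 CPM in MUL1(−/−) replicates 1 to 3. The groups overlapped, and the log2 fold change was 0.14 (SE 0.10, 95% confidence interval -0.08 to 0.35, edgeR adjusted p = 0.325). With 1 library left out it ranged from 0.07, without WT replicate 2, to 0.24, without WT replicate 3 (adjusted p = 0.698 and 0.0535). A small edit can stop a protein from being made and leave the RNA level as it was, so this level does not check the genotype label, which rests on the sample labels.

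Of the 8 members, 4 were called, which is 50% against 37.6% of all tested genes. With a minimum of 1 CPM in 3 samples, which each member passed, 7941 of 16051 tested genes and the same 4 members were called. The members were thus not called more often than genes at such levels. AKT2 and PIK3CA were higher and PIK3CD and PIK3R2 lower in MUL1(−/−) cells, while AKT1, PIK3CB, PIK3R1 and GSK3B were not called. PIK3CD alone passed an absolute log2 fold change of 1 as well, as did 8.13% of tested genes. The median log2 fold change was 0.06 over the members and -0.01 over all tested genes.

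**Figure D1:**
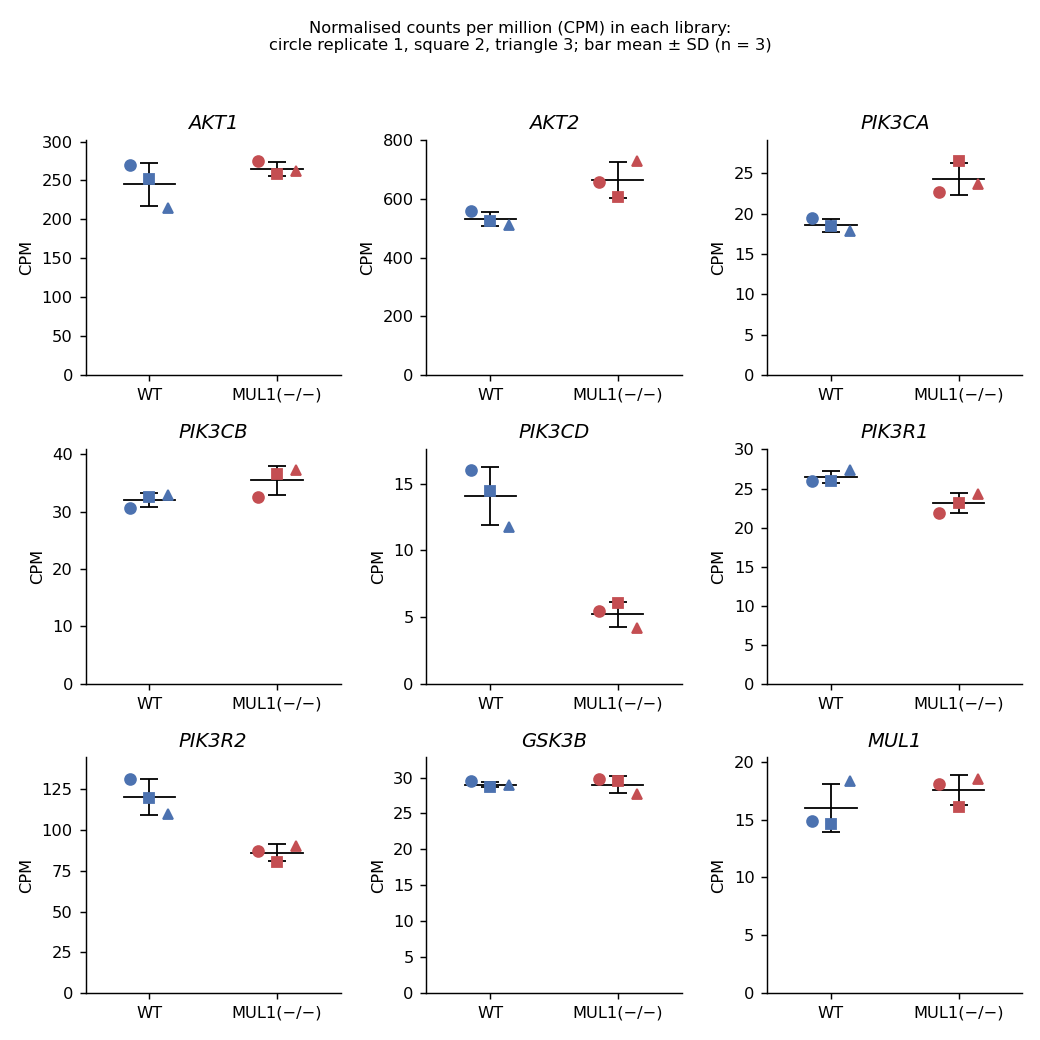
CPM (y axis, linear and starting at 0) of the 8 members and MUL1 in each WT (blue) and MUL1(−/−) (red) library, with the mean and SD of 3 libraries in black and a symbol for each replicate number. PIK3CD is at 11.7 to 16.0 in WT and 4.18 to 6.04 in MUL1(−/−) libraries, AKT2 and PIK3CA are higher in each MUL1(−/−) library than in any WT library, and AKT1, PIK3CB, GSK3B and MUL1 overlap.

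AKT2 (ENSG00000105221, minus strand, chr19:40230317-40285536), the isoform best known for its role in insulin-stimulated glucose uptake, was at 558, 524 and 511 CPM in WT libraries and 656, 606 and 729 CPM in MUL1(−/−) libraries. Every MUL1(−/−) library was above every WT library, with replicate 3 the highest, and the spread was wider among MUL1(−/−) libraries (664 ± 61.7, SD, n = 3) than among WT libraries (531 ± 24.1). The log2 fold change was 0.32 (SE 0.07, 95% confidence interval 0.16 to 0.48, edgeR adjusted p = 0.00288), or 1.25-fold.

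AKT1 (ENSG00000142208, minus strand, chr14:104769349-104795751), the isoform most tied to growth and survival, was at 269, 251 and 215 CPM in WT libraries and 275, 258 and 262 CPM in MUL1(−/−) libraries. The groups overlapped, WT replicate 3 being the lowest library. The log2 fold change was 0.11 (SE 0.08, 95% confidence interval -0.06 to 0.28, edgeR adjusted p = 0.292), an interval that reaches from 0.962-fold to 1.21-fold. It was 0.18 without WT replicate 1 and 0.02 without WT replicate 3, and not called in either case (adjusted p = 0.116 and 0.829). Of the AKT1 counts, 20.02% of its counts lay in bins that another gene's exons also cover.

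As shares of the AKT1 and AKT2 total, taken from counts per kilobase of exon bins, AKT2 made up 60.6%, 60.7% and 63.8% in WT libraries and 63.9%, 63.5% and 67.4% in MUL1(−/−) libraries. MUL1(−/−) replicate 2 lay within the WT range, so the groups overlapped. The mean share was 61.7% ± 1.82 (SD, n = 3) in WT and 64.9% ± 2.11 in MUL1(−/−) cells, a difference of 3.23 percentage points (two-sided exact permutation p = 0.2, where the smallest value that 3 against 3 libraries allow is 0.1). The difference was 2.01 points without MUL1(−/−) replicate 3. Over the 7 shares tested, including those of the PI3 kinase subunits, the Benjamini-Hochberg value was 0.2 for the AKT genes and 0.14 for each PI3 kinase subunit. The AKT1 share is the remainder and carries the same test.

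The order of the isoforms within a library depended on how length was handled. The 108 AKT2 bins include very short ones, each counting every read that crosses it, and when bins under 100 bases were left out the WT means became 59.0% for AKT1 and 41.0% for AKT2. The AKT2 difference was then 0.908 percentage points with overlap (exact permutation p = 0.5). Which of the isoforms was the more abundant was thus not settled by these counts.

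**Figure D2:**
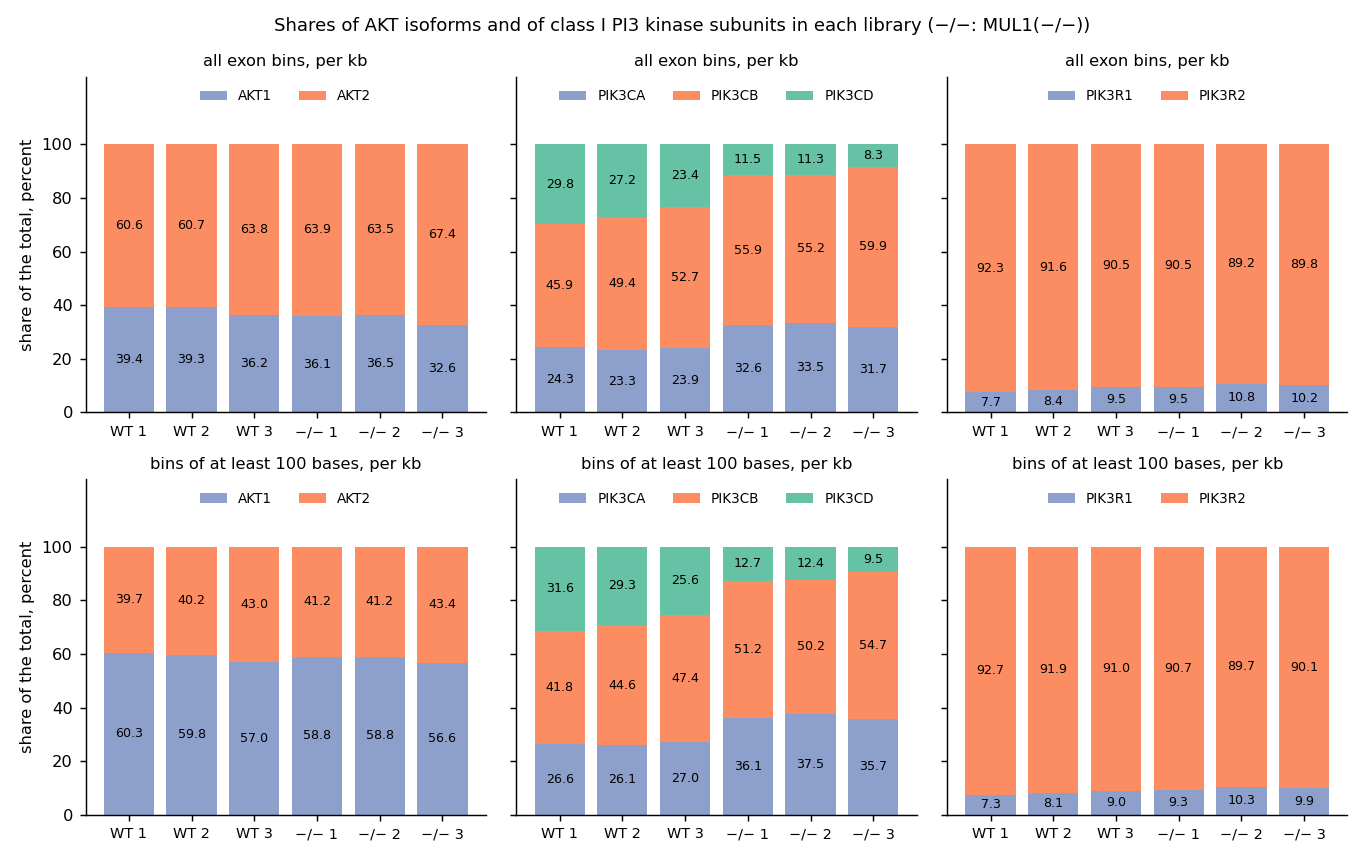
Share of each gene (percent, stacked to 100) in the AKT1 and AKT2 total, in the total of PIK3CA, PIK3CB and PIK3CD, and in that of PIK3R1 and PIK3R2, one bar per library, from counts per kilobase of all exon bins (top) and of bins of at least 100 bases (bottom). PIK3CD takes a smaller share in each MUL1(−/−) library than in any WT library in both rows, and the mean AKT2 share in WT is 61.7% in the top row and 41.0% in the bottom row.

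Among the catalytic subunits, PIK3CD had the largest difference of the members. It encodes p110δ, which is best known from white blood cells, and lies on the plus strand at chr1:9651732-9729114 (ENSG00000171608). It was at 16.0, 14.5 and 11.7 CPM in WT libraries and 5.43, 6.04 and 4.18 CPM in MUL1(−/−) libraries, with a gap between the groups. The log2 fold change was -1.43 (SE 0.14, 95% confidence interval -1.73 to -1.13, edgeR adjusted p = 1.99e-06), or 0.371-fold.

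PIK3CA, the gene of p110α (ENSG00000121879, plus strand, chr3:179148114-179240093), was at 19.4, 18.4 and 17.8 CPM in WT libraries and 22.8, 26.5 and 23.7 CPM in MUL1(−/−) libraries. The groups did not overlap, and the log2 fold change was 0.39 (SE 0.09, 95% confidence interval 0.21 to 0.57, edgeR adjusted p = 0.00203). Bins shared with KCNMB3 held 30.7% of its counts. PIK3CB, the gene of the widely expressed p110β (ENSG00000051382, minus strand, chr3:138652699-138834938), was at 30.6, 32.5 and 32.8 CPM in WT and 32.6, 36.5 and 37.3 CPM in MUL1(−/−) libraries. MUL1(−/−) replicate 1 fell within the WT range, and the log2 fold change was 0.15 (SE 0.08, 95% confidence interval -0.02 to 0.31, edgeR adjusted p = 0.153). With library totals in place of TMM factors PIK3CB was called, at 0.22 (adjusted p = 0.0411).

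Per kilobase, PIK3CD made up 29.8%, 27.2% and 23.4% of the 3 catalytic genes in WT libraries and 11.5%, 11.3% and 8.33% in MUL1(−/−) libraries. Its mean share was 26.8% in WT and 10.4% in MUL1(−/−), a difference of -16.4 percentage points without overlap (exact permutation p = 0.1). The mean share of PIK3CA was 23.8% in WT and 32.6% in MUL1(−/−) and that of PIK3CB 49.3% and 57.0%, each without overlap (exact permutation p = 0.1), and shares of 1 total cannot move independently. The PIK3CB difference of 7.66 percentage points was 1.65 with the most counted bin and 3.28 with unshared bins, both with overlap (exact permutation p = 0.4 and 0.3). PIK3CG, the gene of p110γ, had 3 to 13 counts per library and was not tested.

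Of the regulatory subunit genes, PIK3R2 (p85β, ENSG00000105647, plus strand, chr19:18153118-18170540) was lower in MUL1(−/−) cells. It was at 132, 120 and 110 CPM in WT libraries and 87.5, 80.4 and 90.4 CPM in MUL1(−/−) libraries. The groups stood apart, with a log2 fold change of -0.48 (SE 0.08, 95% confidence interval -0.65 to -0.32, edgeR adjusted p = 0.000186). Its bins were deposited under an identifier joined with IFI30 and the readthrough gene, and the change was of the same sign and called when the joined identifier was kept whole.

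PIK3R1 (ENSG00000145675, plus strand, chr5:68215720-68301821), which encodes p85α and the shorter p55α and p50α, was at 26.0, 26.0 and 27.4 CPM in WT and 21.9, 23.1 and 24.4 CPM in MUL1(−/−) libraries. The groups did not overlap, as was the case for 48.6% of all tested genes. The log2 fold change of -0.19 (SE 0.08, 95% confidence interval -0.36 to -0.03) missed the threshold (edgeR adjusted p = 0.0618), and passed it without MUL1(−/−) replicate 3 (adjusted p = 0.0337). The first exon of PIK3R1-211, a principal transcript, had 148, 160 and 123 counts in WT and 129, 141 and 131 counts in MUL1(−/−) libraries over 230 bases. The first exons of PIK3R1-201 and PIK3R1-202, which start inside the gene, had 3 to 16 and 5 to 19 counts over 384 and 198 bases, so reads from internal starts were few in either genotype.

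PIK3R1 made up 8.50% ± 0.91 (SD, n = 3) of the PIK3R1 and PIK3R2 total per kilobase in WT and 10.2% ± 0.64 in MUL1(−/−) cells, without overlap (exact permutation p = 0.1). This difference of 1.66 percentage points was 3.10 without division by length and 5.99 with the most counted bin, again without overlap. PIK3R3, the gene of p55γ and not among the members, went against PIK3R2. It was at 17.6, 16.7 and 17.9 CPM in WT and 24.9, 25.3 and 28.4 CPM in MUL1(−/−) libraries, a log2 fold change of 0.59 (SE 0.08, edgeR adjusted p = 5.43e-05). PIK3R5 was not called, at 0.05 (adjusted p = 0.805), and PIK3R6, at 0.0617 CPM or less, was not tested.

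GSK3B (ENSG00000082701, minus strand, chr3:119821323-120094417), whose protein AKT phosphorylates and thereby inhibits, was at 29.5, 28.7 and 28.95 CPM in WT and 29.8, 29.5 and 27.7 CPM in MUL1(−/−) libraries. The groups overlapped, and the 95% confidence interval of the log2 fold change, -0.16 to 0.15, reached from 0.896-fold to 1.11-fold (edgeR adjusted p = 0.989). Its paralog GSK3A was higher in MUL1(−/−) cells, at 106, 93.0 and 105 CPM in WT and 159, 145 and 162 CPM in MUL1(−/−) libraries. That log2 fold change was 0.61 (SE 0.07, edgeR adjusted p = 1.29e-05). RNA says nothing of phosphorylation, the step at which AKT acts on either kinase.

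Per kilobase in WT libraries, AKT2 was the highest at 35.3 ± 1.60 CPM (SD, n = 3), then PIK3R2 at 26.6 ± 2.39 and AKT1 at 21.98 ± 2.47. PIK3CB (4.07), GSK3B (3.63), PIK3R1 (2.46), PIK3CD (2.22) and PIK3CA (1.97) followed. Ranges of neighbours in this order overlapped for PIK3R1 with PIK3CD and for PIK3CD with PIK3CA. In MUL1(−/−) libraries AKT1 (23.8 ± 0.793) stood above PIK3R2 (19.0 ± 1.14), PIK3CA (2.58 ± 0.210) above PIK3R1 (2.15 ± 0.115), and PIK3CD was last at 0.824 ± 0.150. These levels carry the same uncertainty about short bins as the AKT shares.

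A number of members differed in the direction of the genes around them. For each gene the median log2 fold change of the 20 nearest tested genes on its chromosome was taken, and this median lay between -0.55 and 0.59 for 95% of tested genes. AKT2, at 0.32, stood beside a neighbour median of 0.36, with 9 of the 20 called higher and 1 called lower. PIK3CA, at 0.39, stood beside 0.44, and each of its 20 neighbours was higher, 15 of them called. For these genes the difference from the neighbour median was -0.04 and -0.05, less than 1 SE of the gene's own value.

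PIK3R2, at -0.48, stood beside -0.34, with 12 of its 20 neighbours called lower and 0 called higher. PIK3CD, at -1.43, stood beside -0.78, with each of its 20 neighbours lower and 13 called, and the neighbour median was outside the gene's confidence interval. AKT1 (0.11 beside -0.22) and MUL1 (0.14 beside -0.56, with 12 of 20 neighbours called lower) had medians of the opposite sign, outside their confidence intervals. The medians for PIK3CB (0.05), PIK3R1 (-0.01) and GSK3B (0.03) were near 0. Copy number was not measured, and the part of the neighbourhood in these differences was not tested.

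The nearest tested genes on each side of the called members were mixed. CCNP, beside AKT2, was higher by 1.26 on the log2 scale (edgeR adjusted p = 0.00143), and a gene known by its identifier ENSG00000205041, whose span lies within AKT2, by 0.49 (adjusted p = 0.00351). Next to PIK3CA, ZMAT3 was at 0.09 (adjusted p = 0.450) and KCNMB3, which shares its reads, at 0.29 (adjusted p = 0.0495). TMEM201, beside PIK3CD, was at -0.02 (adjusted p = 0.916), whereas PIK3CD-AS2, an antisense gene within it, was at -0.90 (adjusted p = 0.000489). IFI30, beside PIK3R2, was at -0.41 (adjusted p = 0.00137) and MAST3-AS1 at -0.29 (adjusted p = 0.221). Whether the counting used strand is not given in the sources used here, so reads in bins that PIK3CD shares with another gene, 10.7% of its counts, cannot be assigned to either gene with certainty. Without those bins PIK3CD was called at -1.60 (adjusted p = 1.08e-06).

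**Figure D3:**
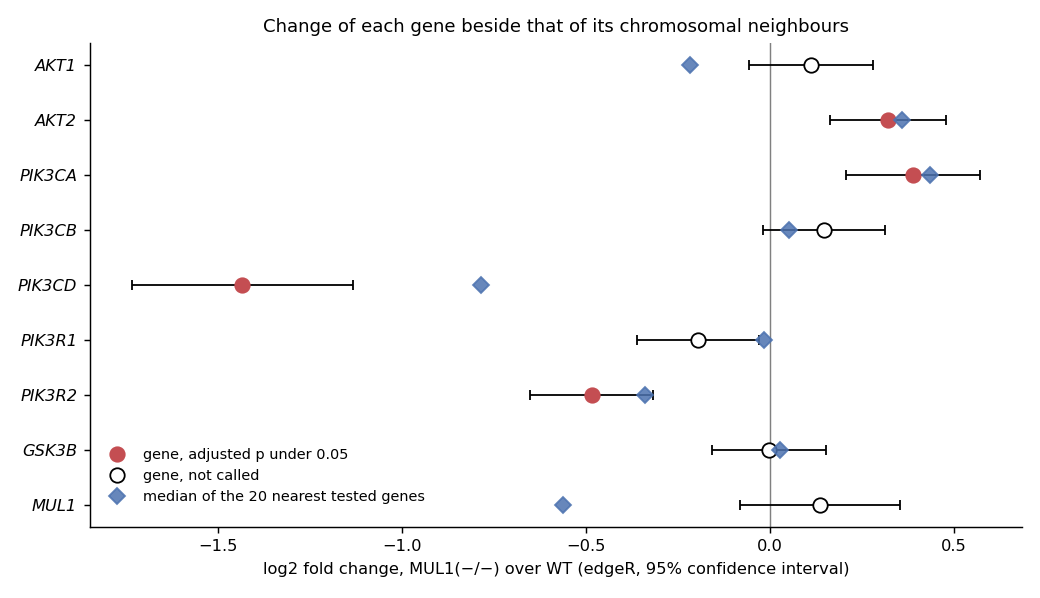
Log2 fold change of each member and MUL1 (circles, red where called, with 95% confidence intervals) and the median log2 fold change of the 20 nearest tested genes (blue diamonds). The diamond lies inside the interval for AKT2, PIK3CA, PIK3CB, PIK3R2 and GSK3B, and outside it for AKT1, PIK3CD, PIK3R1 and MUL1.

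Across the libraries, the genes most like AKT2 in log2 CPM, among 15890 with a mean of at least 1 CPM, were TIMM13 (Pearson r = 0.999), ENSG00000259780 (0.996) and PAK4 (0.995). TIMM13 and PAK4 lie on chromosome 19, as AKT2 does. The genes most like AKT1 were CABIN1 (r = 0.993), NXN (0.990) and SLX4 (0.984). These values rest on 6 libraries that share 1 difference between genotypes and are the highest of many, so they describe a likeness of pattern only.

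In AKT1, AKT2, PIK3CD and PIK3R2 the change was not even along the gene. Usage of each exon bin relative to the rest of its gene was tested with edgeR's diffSpliceDGE over 321410 bins, of which 4679 (1.46%) were called at an adjusted p under 0.05. Of the 339 tested bins of the members, 10 (2.95%) were called: 3 in AKT1, 4 in AKT2, 1 in PIK3CD and 2 in PIK3R2. PIK3CA, PIK3CB, PIK3R1 and GSK3B had 0, as did MUL1. Neighbouring bins share reads and are not independent. Changes in usage are given below as natural logarithms, unlike the log2 fold changes of the genes.

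Of the 105 tested AKT2 bins, 96 had a higher mean CPM in MUL1(−/−) than in WT libraries, but not those at its 3′ end. The last 2017 bases of its last exon, exon 14 of the principal transcript (chr19:40230318-40232334, 3′ untranslated in both transcripts that contain it), had 2267, 2427 and 2135 counts in WT libraries and 1752, 1756 and 1720 counts in MUL1(−/−) libraries. In CPM these were 17.2, 16.6 and 16.4 against 13.4, 13.5 and 13.4, so the bin was lower in every MUL1(−/−) library while the gene as a whole was higher. Its share of the AKT2 counts was 3.15% ± 0.0585 (SD, n = 3) in WT and 2.04% ± 0.197 in MUL1(−/−) cells. Relative to the rest of the gene its natural-log change was -0.44 (adjusted p = 7.57e-08). The adjoining bin of 2 bases, which the same reads cross, gave -0.47 (adjusted p = 2.48e-06).

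The other called AKT2 bins, at chr19:40237061-40237307 and chr19:40237308-40237968, lie where transcripts with a retained intron are annotated and no transcript codes for protein. The longer one had 427, 522 and 356 counts in WT and 388, 361 and 392 in MUL1(−/−) libraries, which is about level in CPM. Its natural-log change relative to the gene was -0.31 (adjusted p = 0.009995). Neither of these intronic bins was called without WT replicate 2 (adjusted p = 0.402 for the longer one) or without MUL1(−/−) replicate 1 (adjusted p = 0.0810), and the shorter one was also lost without MUL1(−/−) replicate 3 (adjusted p = 0.0699).

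In AKT1 the called bins were at the 5′ end, in the first exon of the principal transcript, where the annotated transcripts are untranslated. The longest, chr14:104795505-104795679, had 287, 251 and 210 counts in WT libraries and 755, 389 and 453 counts in MUL1(−/−) libraries. Each MUL1(−/−) library was above the WT libraries, replicate 1 by the most. The natural-log change of the bin relative to the gene was 0.73 (adjusted p = 3.47e-11). On the same scale the adjoining bins changed by 0.76 (adjusted p = 1.45e-06) and 0.48 (adjusted p = 0.00115). The last of these was not called without MUL1(−/−) replicate 1 (adjusted p = 0.445) or without WT replicate 2 (adjusted p = 0.0670). Together the 3 bins held 1.46% ± 0.115 of the AKT1 counts in WT and 2.81% ± 0.957 in MUL1(−/−) cells, a difference of 1.35 percentage points that was 0.810 without MUL1(−/−) replicate 1.

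In PIK3CD the called bin was the 3′-most one, chr1:9728920-9729114, which an exon of another gene also covers. It had 167, 145 and 147 counts in WT and 126, 129 and 118 counts in MUL1(−/−) libraries. Its share of the PIK3CD counts was 8.12% ± 1.38 in WT and 18.7% ± 2.92 in MUL1(−/−) cells (natural-log change in usage 0.82, adjusted p = 6.03e-08).

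In PIK3R2 the called bins, chr19:18161279-18161468 and chr19:18161469-18161495, are coding in 4 annotated transcripts. They had 291, 259 and 227 counts together in WT and 316, 268 and 316 in MUL1(−/−) libraries. Their share of the PIK3R2 counts was 1.58% ± 0.102 in WT and 2.68% ± 0.0990 in MUL1(−/−) cells. The natural-log change of the longer bin relative to the gene was 0.52 (adjusted p = 4.33e-06).

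**Figure D4:**
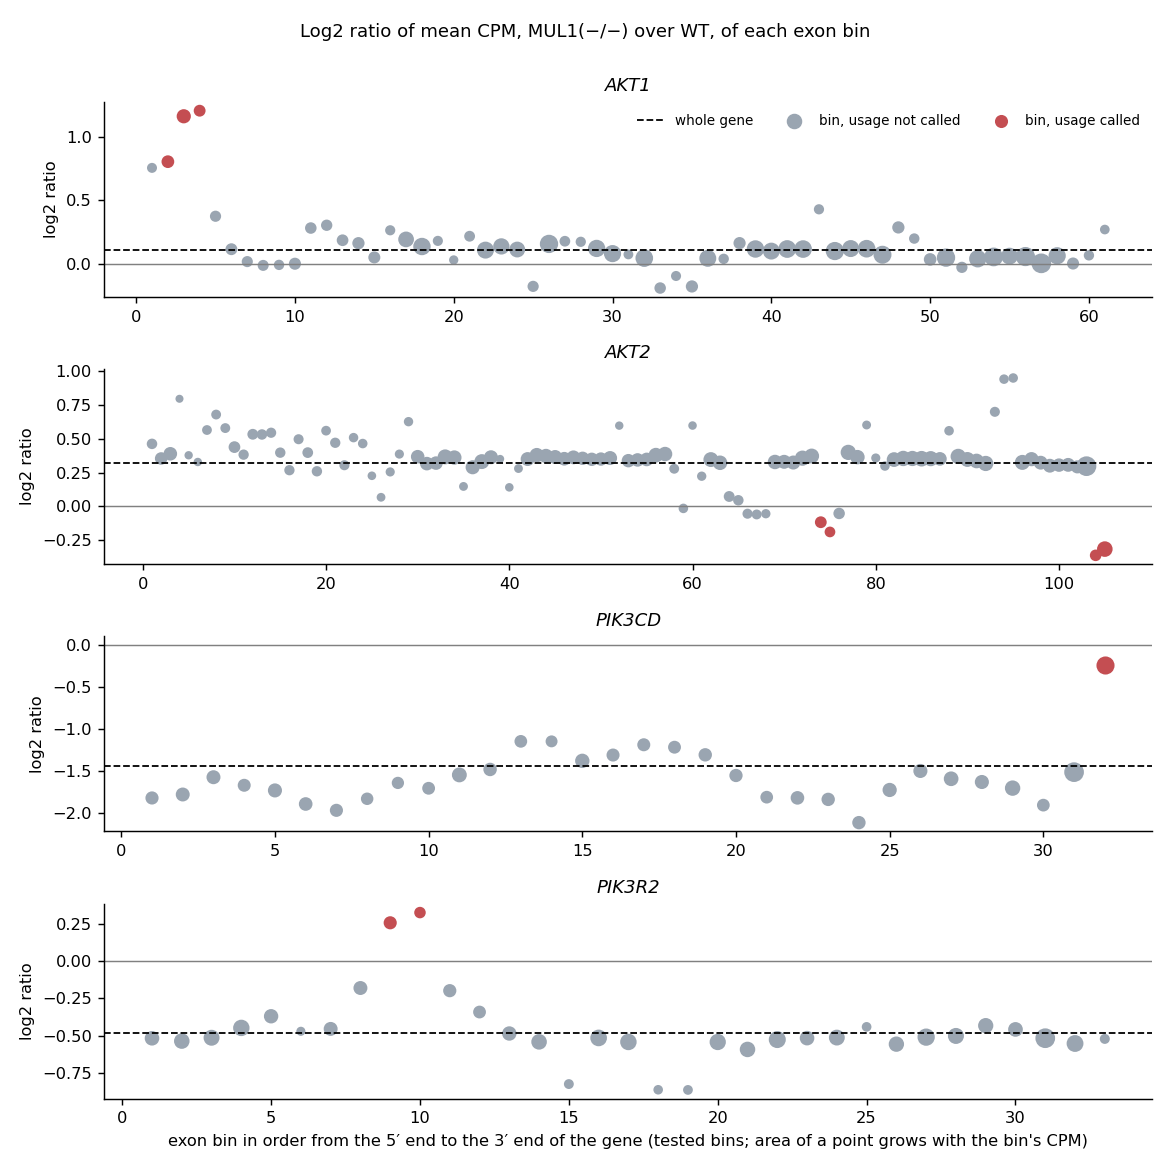
Log2 ratio of mean CPM, MUL1(−/−) over WT, of each tested exon bin (y axis) in order from the 5′ to the 3′ end of AKT1, AKT2, PIK3CD and PIK3R2 (x axis), with larger points for higher CPM, red where the usage of the bin was called, and the whole gene as a dashed line. The last AKT2 bins lie below 0 while the gene lies at 0.32, the first AKT1 bins lie above the gene, and the last PIK3CD bin is near 0.

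The rest of the pathway was followed in 11 lists of 98 genes in all, 94 of them tested, which include the members. Of the 94, 19 were called higher and 23 lower in MUL1(−/−) cells, and 52 were not called. The called share was 44.7%, against 37.6% of all tested genes. The median log2 fold change was -0.02 over the 94 genes. A minimum of 1 CPM in 3 samples was passed by all 94 genes but PDGFRB, which reached at most 0.396 CPM. With that minimum, 7941 of 16051 tested genes and 45 pathway genes were called, so the pathway did not stand out among genes at such levels. The 37.6% given beside each list below also covers genes under that minimum. The lists were compiled with earlier results of these data known, so the counts are a description.

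Among the 18 receptors and adaptors, 2 were called higher and 6 lower, 44.4% against 37.6% of all tested genes. ERBB3, a receptor that recruits PI3 kinase directly, fell from 20.5, 21.4 and 19.6 CPM in WT to 8.90, 9.31 and 8.05 CPM in MUL1(−/−) libraries, with no overlap. Its log2 fold change was -1.23 (SE 0.09, edgeR adjusted p = 1.18e-07), but -0.27 (adjusted p = 0.00175) when the identifier that joins it with other genes was kept whole. Its partner ERBB2 rose from 70.7, 64.4 and 64.3 CPM to 110, 107 and 114 CPM, a log2 fold change of 0.73 (SE 0.07, edgeR adjusted p = 1.33e-06) beside a neighbour median of 0.52. INSR, the insulin receptor, rose from 27.4, 27.0 and 23.2 CPM to 40.5, 40.2 and 36.9 CPM (0.60, SE 0.08, adjusted p = 4.92e-05), beside a neighbour median of 0.64. FGFR3, KIT, IRS1, IRS2 and SHC1 were the others called lower, by log2 fold changes of -1.12, -0.64, -0.62, -0.40 and -0.22. Of the insulin receptor substrates, IRS1 and IRS2 were thus lower, the IRS2 groups with overlap. IRS4, at 389 to 494 CPM in WT the one with the most counts, was at 0.14 and not called (adjusted p = 0.205). Bins that another gene's exons also cover held 55.9% of the IRS2 counts and 90.6% of the IRS4 counts.

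Of the 5 genes of the AKT-activating kinases, PDPK1 and the MTOR complex that contains RICTOR, MTOR and RICTOR were called lower (40%, against 37.6% of all tested genes). MTOR, the kinase of both MTOR complexes, was at 183, 175 and 193 CPM in WT and 121, 115 and 117 CPM in MUL1(−/−) libraries, without overlap. Its log2 fold change was -0.64 (SE 0.07, edgeR adjusted p = 2.85e-06) beside a neighbour median of -0.71. RICTOR, which directs MTOR to AKT, was at 43.9, 45.2 and 41.7 CPM and 29.9, 31.9 and 31.6 CPM, a log2 fold change of -0.49 (SE 0.07, edgeR adjusted p = 9.45e-05) beside -0.58. PDPK1 (0.19, adjusted p = 0.0770), MAPKAP1 (0.08, adjusted p = 0.366) and MLST8 (-0.13, adjusted p = 0.163) were not called.

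Of 13 phosphatases and inhibitors of the pathway, INPP5K and THEM4 were called higher and 11 were not called, so 15.4% were called against 37.6% of all tested genes. INPP5K, a phosphatase that acts on PIP3, rose from 28.7, 28.96 and 27.1 CPM to 62.7, 59.1 and 61.7 CPM, with no overlap. Its log2 fold change was 1.12 (SE 0.07, edgeR adjusted p = 2.34e-08), the smallest adjusted p of the list, beside a neighbour median of 0.55. THEM4, a protein reported to bind AKT, was at 0.26 (SE 0.08, adjusted p = 0.0239), a call lost without WT replicate 1, WT replicate 2 or MUL1(−/−) replicate 3 (adjusted p = 0.112, 0.127 and 0.0616).

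Among 8 genes that attach ubiquitin to AKT or remove it, MUL1 included, CYLD was called higher and STUB1 and SKP2 lower. That is 37.5%, about the 37.6% of all tested genes. STUB1, a chaperone-associated ligase, was at 559, 502 and 464 CPM in WT and 388, 362 and 417 CPM in MUL1(−/−) libraries, without overlap (-0.38, SE 0.08, edgeR adjusted p = 0.00117). SKP2 was at -0.25 (SE 0.07, adjusted p = 0.00814), a call lost without MUL1(−/−) replicate 1 (adjusted p = 0.0540) and with its most counted bin (adjusted p = 0.116). CYLD, a deubiquitinase, was at 22.4, 21.95 and 25.6 CPM and 30.4, 32.9 and 32.0 CPM (0.45, SE 0.08, adjusted p = 0.000557), but at 0.21 (adjusted p = 0.169) by its most counted bin.

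Of 15 AKT substrates, 5 were called higher and 3 lower, 53.3% against 37.6% of all tested genes. GSK3A, TBC1D4 (0.39, SE 0.07, edgeR adjusted p = 0.000396), which restrains GLUT4 traffic, AKT1S1 (0.33), FOXO1 (0.25) and TSC2 (0.19) were higher. CDKN1A, a cell cycle inhibitor, was lower (-0.38, SE 0.08, adjusted p = 0.00124), as were FOXO4 (-0.35) and TBC1D1 (-0.33). FOXO1, TBC1D4, AKT1S1 and GSK3A stood beside neighbour medians of 0.41, 0.40, 0.39 and 0.28. The medians were of the opposite sign for TSC2 (-0.23), CDKN1A (0.11) and FOXO4 (0.03), and TBC1D1 stood beside -0.08.

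In the branch from TSC to the first MTOR complex, 8 of 10 genes (80%, against 37.6% of all tested genes) were called, 4 in each direction. RHEB, the small GTPase that turns the complex on, fell from 235, 229 and 236 CPM to 141, 164 and 152 CPM, without overlap (-0.61, SE 0.07, edgeR adjusted p = 7.23e-06), beside a neighbour median of -0.32. EIF4EBP2, a brake on translation, was at -0.45 (SE 0.08, adjusted p = 0.000276) beside a neighbour median of -0.40, and RPS6, a ribosomal protein that the S6 kinases phosphorylate, at -0.37 (SE 0.06, adjusted p = 0.000385). DEPTOR was also lower, and RPTOR, RPS6KB1, RPS6KB2 and EIF4EBP1 were higher, by log2 fold changes of 0.22 to 0.36.

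Among 17 genes that FOXO factors are known to activate, 16 were tested, 3 were called higher and 5 lower, 50% against 37.6% of all tested genes. TXNIP, an inhibitor of glucose uptake, fell from 12.5, 12.2 and 11.3 CPM to 7.09, 7.99 and 6.28 CPM (-0.75, SE 0.11, edgeR adjusted p = 5.44e-05), without overlap and beside a neighbour median of 0.18. PCK1, a gluconeogenic enzyme gene, was low in both genotypes, at 0.623, 0.778 and 0.682 CPM in WT and 1.35, 1.33 and 1.34 CPM in MUL1(−/−) libraries, and rose by 0.94 (SE 0.16, adjusted p = 0.000319). GADD45A (-0.44), IRS2, BCL2L11 (-0.32) and SESN3 (-0.24) were the others called lower, and CITED2 (0.28) and INSR the others called higher. The 4 tested class II and class III genes, PIK3C2A (0.18), PIK3C2B (-0.20), PIK3C3 (0.03) and PIK3R4 (-0.13), were not called (edgeR adjusted p from 0.0795 to 0.784), and PIK3C2G, with at most 2 counts, was not tested.

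Across the 94 tested pathway genes, the log2 fold change and the neighbour median had a Pearson r of 0.412 and a Spearman rho of 0.309. Across 25060 genes of the whole table r was 0.344 and rho 0.415, a description over genes that share neighbours and are not independent. The signs agreed for 28 of the 42 called pathway genes (66.7%) and for 6934 of 9451 called genes in all (73.4%). INSR, MTOR, RICTOR, AKT2 and PIK3CA lay close to their neighbour medians, whereas ERBB3, FGFR3, KIT, IRS1, TXNIP, PCK1 and PIK3R3 did not.

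**Figure D5:**
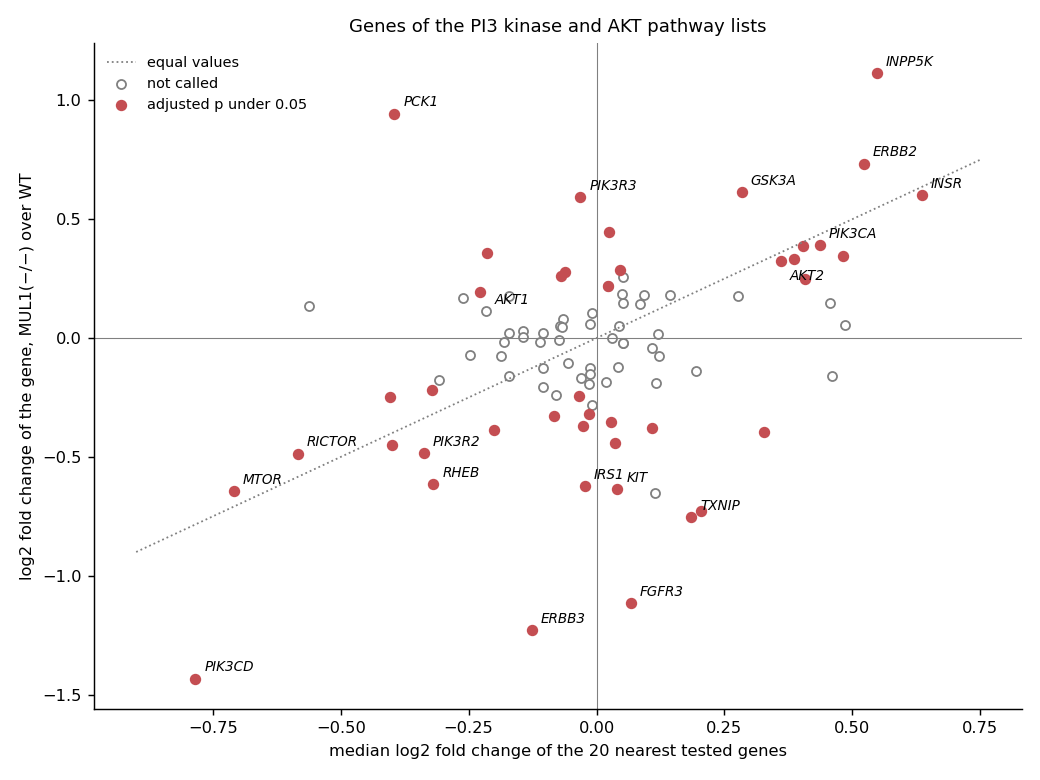
Log2 fold change of the 94 tested pathway genes (y axis) against the median log2 fold change of their 20 nearest tested genes (x axis), red where called, with a dotted line where the values are equal. INSR, PIK3CA, AKT2, RICTOR and MTOR lie near the line, and PIK3CD, ERBB3, FGFR3, PIK3R3, INPP5K and PCK1 away from it.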

How the data were processed

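RNA of 6 HEK293 libraries, 3 WT and 3 MUL1(−/−), was prepared with the SMARTER mRNA-Seq kit. The submitters' processing notes name Trimmomatic 0.36, STAR 2.5.2b and GRCh38; the counting program is not given in the sources used here. The deposited values are raw read counts for each exon bin, which the authors did not normalise. Here 597973 bins under 54848 identifiers were summed to genes; identifiers that join several genes (20.98% of counts) were divided by GENCODE 29 exons, leaving out 0.92% of counts in ambiguous bins. Groups and replicate numbers came from the sample titles. Gene counts were tested with edgeR 4.0.16 (TMM, filterByExpr, quasi-likelihood) in R 4.3.3, bins with diffSpliceDGE, and shares with exact permutation tests in scipy 1.17.1. DESeq2 1.42.0 and limma 3.58.1 gave alternatives. On simulated data for 25204 genes with the depths of this comparison, edgeR recovered 133 of 200 genes changed by a log2 fold change of 1, with 17 false calls; for 104341 simulated bins, diffSpliceDGE recovered 194 of 200 changed by 2, with 24 false calls. Between replicates of a genotype the chi-square, taken on 1 bin per gene (the one with the most counts) so that no read entered repeatedly for a gene, was 2.95 to 10.9 per degree of freedom, above sampling noise, and none were merged. A count of 3, the floor, corresponds to 0.0205 to 0.0234 CPM, and limits from counts cover counting error only. The members and pathway lists were chosen with earlier results of these data known. Named genes are the members, MUL1, called genes of the lists (full statistics for at most the 3 smallest adjusted p of each), the uncalled genes of lists of at most 5, and the 3 called bins with the smallest adjusted p of each member. A further called AKT2 bin was added after its values were seen. IRS4, an uncalled gene of a longer list, was named beside IRS1 and IRS2. Some genes of the planned lists and shares are not reported here, and their counts and shares were taken without them.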

Additional observations from a re-analysis of the deposited data

How the results depend on the processing

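AKT2, PIK3CA, PIK3CD and PIK3R2 were called in the same direction under each of 16 alternatives: library totals, RLE factors, limma-voom, DESeq2, no filter, a minimum of 1 CPM in 3 samples, the replicate block, 6 fits without 1 library, the most counted bin, unshared bins (which removed no AKT2 or PIK3R2 counts) and joined identifiers kept whole. The PIK3CD log2 fold change ranged from -1.60 to -1.30. In total 4 to 5 members were called, with PIK3CB added by library totals and PIK3R1 without MUL1(−/−) replicate 3. The replicate numbers did not pair the samples, since deviations of same-numbered libraries correlated at r = -0.0756, 0.166 and 0.106 and not every library correlated best with its own number. With the replicate block 4 members, 44 pathway genes and 10 member bins were called, against 4, 42 and 10, and 9341 genes against 9488.

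Genes called past an absolute log2 fold change of 1 numbered 2049, and 776 with the minimum of 1 CPM, where 16051 genes were tested. Without 1 library, calls numbered 7429 to 9705 over all genes, 1968 to 2359 past the fold, 4 to 5 among members, 33 to 47 among pathway genes and 7 to 11 among member bins. Less the neighbour median, signs of called genes reversed for AKT2 (-0.0381), PIK3CA (-0.0458), INSR (-0.0355), MTOR (0.0648), RICTOR (0.0984), SKP2 (0.155) and TBC1D4 (-0.0170). The same held for SHC1 (0.102), AKT1S1 (-0.0511), FOXO1 (-0.158) and EIF4EBP1 (-0.137). GSK3B, near 0, changed sign in 10 alternatives, to 0.00509 with DESeq2, 0.00506 with RLE factors, 0.0684 with library totals, 0.0279 without a filter, 0.0103 with the minimum of 1 CPM, 0.162 with the most counted bin, 0.00187 with unshared bins, 0.00767 with joined identifiers, and -0.0151 to 0.0313 over the fits without 1 library, and it was called in 0.

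Shares, in percentage points of MUL1(−/−) less WT, moved by more than the replicate SD in these cases. With the most counted bin the PIK3CA difference was 12.5, that of PIK3CB 1.65, PIK3R1 5.99 and PIK3R2 -5.99. With bins of at least 100 bases AKT1 was -0.908, AKT2 0.908 and PIK3CA 9.89. With unshared bins PIK3CA was 11.1 and PIK3CB 3.28, the PIK3CB groups overlapping there and with the most counted bin, and without division by length PIK3R1 was 3.10 and PIK3R2 -3.10. The cause of these moves was not tested. The lowest count of a member in any library was 536, for PIK3CD in MUL1(−/−) replicate 3.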
